A study of Mus musculus with 9 samples.

Results

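The AP-1 family was described here through its 7 Fos and Jun genes (Fos, Fosb, Fosl1, Fosl2, Jun, Junb and Jund), taken by gene symbol from the 54532 genes of the count table; all 7 were found and all 7 passed the filter on low counts. Levels came from RNA sequencing of 9 hippocampal libraries, 1 per mouse, of which 5 mice had received Ant-134 and 4 had received Scr. Ant-134 is a locked nucleic acid antimiR against the microRNA miR-134, and Scr is its scrambled control. Every mouse was of the strain N4 Ube3am-/p+, which lacks a working maternal copy of the ubiquitin ligase gene Ube3a, is a model of Angelman syndrome and was made susceptible to sound-induced seizures by backcrossing to a 129 background. All 9 mice were injected into the cerebral ventricles with 0.5 nmol at postnatal day 21, underwent audiogenic seizure testing at postnatal days 22, 24 and 26, and were killed 24 h after the last test. No wild-type mice, uninjected mice or mice without seizure tests were among the samples, so both groups share the deletion, the injection and the seizure tests. Seizures themselves may have differed, since the paper reported milder audiogenic seizures after Ant-134 than after Scr. The labels give no seizure score for any of the 9 mice, so treatment and seizure severity cannot be told apart. The comparison therefore asks whether transcripts of these factors differed between Ant-134 and Scr a day after the last seizure test.

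AP-1 is a dimer of basic leucine zipper proteins that binds short palindromic DNA sites. Jun proteins pair with themselves or with Fos proteins, whereas Fos proteins need a Jun partner to bind DNA. In hippocampal neurons Fos, Fosb and Junb are immediate early genes, switched on within minutes by synaptic activity and seizures through cAMP response elements and serum response elements in their promoters, and their mRNAs decay quickly. Jun and Jund are present at rest, Fosl2 is induced more slowly, and a truncated, long-lived product of Fosb, deltaFosB, builds up in the dentate gyrus with repeated seizures. The counts used here sum all transcripts of a gene and do not separate deltaFosB from full-length Fosb.

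The 3 immediate early members that were high together in 1 library, Ant-134 replicate 5 (Fos, Fosb and Junb, described next), are shown here by the 150 bases before their RefSeq start in GRCm38.p6, beside Jun, which varied little. They are printed 5′ to 3′ on the strand of the gene, and capitals mark the motif named for each. Fos (chr12:85473740-85473889, plus strand) holds the core of the cAMP response element, TGACG, at -129 and -66 relative to the start, Fosb (chr7:19310046-19310195, minus strand) holds it at -60 and Junb (chr8:84978749-84978898, minus strand) at -106. Jun (chr4:95052223-95052372, minus strand) instead holds the Jun-type AP-1 site TGACATCA at -45.
Fos: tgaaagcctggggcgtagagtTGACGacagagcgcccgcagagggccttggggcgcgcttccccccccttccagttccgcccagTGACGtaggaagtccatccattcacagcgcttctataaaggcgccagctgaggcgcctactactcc
Fosb: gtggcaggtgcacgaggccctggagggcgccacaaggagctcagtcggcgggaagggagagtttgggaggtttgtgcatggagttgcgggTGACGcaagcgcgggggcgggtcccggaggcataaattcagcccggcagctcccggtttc
Junb: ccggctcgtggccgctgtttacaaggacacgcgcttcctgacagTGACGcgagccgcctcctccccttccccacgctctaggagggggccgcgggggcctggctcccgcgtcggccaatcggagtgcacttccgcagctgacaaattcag
Jun: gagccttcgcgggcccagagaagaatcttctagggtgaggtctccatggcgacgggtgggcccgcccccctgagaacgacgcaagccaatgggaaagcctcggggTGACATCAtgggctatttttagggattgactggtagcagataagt

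Both strands of the 300-base RefSeq window around the start were searched for each motif, and 6 of the 7 members had a window. TGACG lay in 3 of the 6 (Fos, Fosb and Junb) and in 20.8% of all 32851 windows. TGACATCA, a motif added after the Jun sequence had been seen, lay in 1 of the 6 and in 3.62% of all windows. The full cAMP response element TGACGTCA (1.79% of all windows), the AP-1 site TGANTCA (7.81%) and the CArG box of serum response factor (1.63%) lay in 0 of the 6. TGACG is contained in TGACGTCA, so those motifs overlap. The RefSeq starts of Fosl2 and Jund lie 671 and 1210 bases from the gene starts of the count table, so their windows describe other starts than those that the table lists. These matches are letters in a window and no measure of binding. Sequence outside the windows was not searched, so a count of 0 does not mean that a gene lacks the element.

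The mature sequence targeted by Ant-134 was read from RefSeq in GRCm38.p6 (chr12:109734145-109734166, plus strand), with its seed, bases 2 to 8, in capitals.
mmu-miR-134-5p: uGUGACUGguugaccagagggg
The longest annotated 3′ untranslated region of each member was searched for the sites that pair with this seed, CAGTCAC and AGTCACA. Neither was found in any of the 7 members, and 19.5% of the 15275 tested genes with such a region held at least 1. A share of that size is few genes among 7, so a count of 0 does not set the family apart. Letters absent from these regions say nothing about other forms of targeting.

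Sequencing was deep enough for every member: libraries held 28583298 to 41978113 counts on genes, and the lowest count of any member in any library was 129 (Fosb). Within groups no pair of libraries was alike enough to be a repeat, with a chi-square per gene of 7.56 to 18.98. Markers of hippocampal principal neurons were detected in all libraries (9 of 9 genes, summed level 2751 to 3125 CPM, counts scaled to library size), in keeping with the labelled tissue. Choroid plexus markers, from tissue that borders the hippocampus, ranged from 69.2 to 2568 CPM, and were highest in Ant-134 replicate 1. Summed microglial markers (8 of 8 detected) were lower in every Ant-134 library (402 to 423 CPM) than in every Scr library (446 to 512 CPM), and their part in any result was not tested. Ube3a lay between 85.6 and 100.4 CPM in all 9 libraries, with a log2 fold change of -0.03 (SE 0.05), which does not check the group labels because all mice carry the deletion. Y-linked genes were expressed in 3 of 5 Ant-134 and 3 of 4 Scr libraries, so the groups were not matched for sex, which the labels do not give.

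Fos encodes the prototype inducible partner of Jun. It measured 11.0, 12.6, 12.2, 10.5 and 31.0 CPM in Ant-134 replicates 1 to 5, and 10.1, 13.4, 10.9 and 15.9 CPM in Scr replicates 1 to 4. The groups overlapped, since 4 of the 5 Ant-134 values lay inside the Scr range and 1 mouse, Ant-134 replicate 5, stood at 1.95 times the highest of the other 8. The means were 15.4 ± 8.72 CPM (SD, n = 5) for Ant-134 and 12.5 ± 2.65 CPM (SD, n = 4) for Scr. The log2 fold change of Ant-134 over Scr was 0.30 (SE 0.37, 95% interval -0.57 to 1.17; edgeR quasi-likelihood test, unadjusted p = 0.450, adjusted p = 0.998). Without Ant-134 replicate 5 it was -0.12 (SE 0.13).

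Fosb is the source of FosB and deltaFosB. Its levels were 5.82, 5.20, 4.59, 6.52 and 13.8 CPM in Ant-134 replicates 1 to 5, against 4.36, 6.24, 5.43 and 6.50 CPM in Scr replicates 1 to 4. Again a single Ant-134 library, replicate 5, stood above all others, at 2.11 times the next, and the remaining Ant-134 values spanned nearly the Scr range. Fosb had the highest fold change of the 7 members, a log2 value of 0.35 (SE 0.32, 95% interval -0.39 to 1.08; edgeR unadjusted p = 0.313, adjusted p = 0.998). That value was -0.03 (SE 0.15) without Ant-134 replicate 5.

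Fosl1, encoding Fra-1, and Fosl2, encoding Fra-2, lack the transactivation domain of Fos. Fosl1 measured 6.34, 6.16, 6.37, 7.17 and 5.99 CPM in Ant-134 replicates 1 to 5 and 4.98, 7.07, 6.60 and 7.32 CPM in Scr replicates 1 to 4, so that the Scr range enclosed all 5 Ant-134 values. Its log2 fold change was -0.02 (SE 0.12, 95% interval -0.28 to 0.24). Ant-134 replicate 5, which held the highest Fos and Fosb, held the second lowest Fosl1 of the 9.

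Fosl2 measured 51.5, 58.4, 44.0, 52.4 and 60.3 CPM in Ant-134 replicates 1 to 5, and 52.7, 54.8, 44.3 and 53.9 CPM in Scr replicates 1 to 4. The groups overlapped, with replicate 3 the lowest library of each group. The log2 fold change was 0.05 (SE 0.09, 95% interval -0.14 to 0.25). Ant-134 replicate 5 was again the highest library for Fosl2, but at only 1.03 times the next.

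Jun encodes a phosphorylation-controlled subunit of AP-1 that pairs with Fos proteins. Its levels were 94.9, 106.8, 88.5, 106.4 and 102.7 CPM in Ant-134 replicates 1 to 5, and 94.3, 107.2, 96.6 and 97.1 CPM in Scr replicates 1 to 4. It was the least variable member, with a coefficient of variation over the 9 libraries of 6.70%, and the library high in Fos lay within its range. The log2 fold change was 0.02 (SE 0.06), with a 95% interval of -0.11 to 0.14. The antisense transcript Junos overlaps Jun by 689 bases and held 34 to 75 counts per library; its part in the Jun values was not tested.

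Junb, an early-induced Jun protein and a weaker activator than Jun, was high in the same library as Fos and Fosb. It measured 64.1, 58.8, 51.4, 51.6 and 90.7 CPM in Ant-134 replicates 1 to 5, and 49.3, 59.4, 60.1 and 57.0 CPM in Scr replicates 1 to 4. Ant-134 replicate 5 stood at 1.41 times the next library, which was also an Ant-134 library, and the other Ant-134 values overlapped those of Scr. The log2 fold change was 0.17 (SE 0.18, 95% interval -0.24 to 0.57), and 0.0013 (SE 0.08) without Ant-134 replicate 5. Prdx2, on the opposite strand, overlaps Junb by 351 bases and held 5790 to 8826 counts per library; how strand was treated in counting is not given in the sources used here, and a part of Prdx2 reads in the Junb values was not tested.

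Jund, the constitutive Jun protein, measured 58.4, 66.9, 64.7, 59.3 and 69.1 CPM in Ant-134 replicates 1 to 5, and 68.4, 56.8, 73.8 and 63.3 CPM in Scr replicates 1 to 4. The Scr values enclosed all Ant-134 values, and the highest library was Scr replicate 3. The log2 fold change was -0.04 (SE 0.07, 95% interval -0.20 to 0.12).

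**Figure D1:**
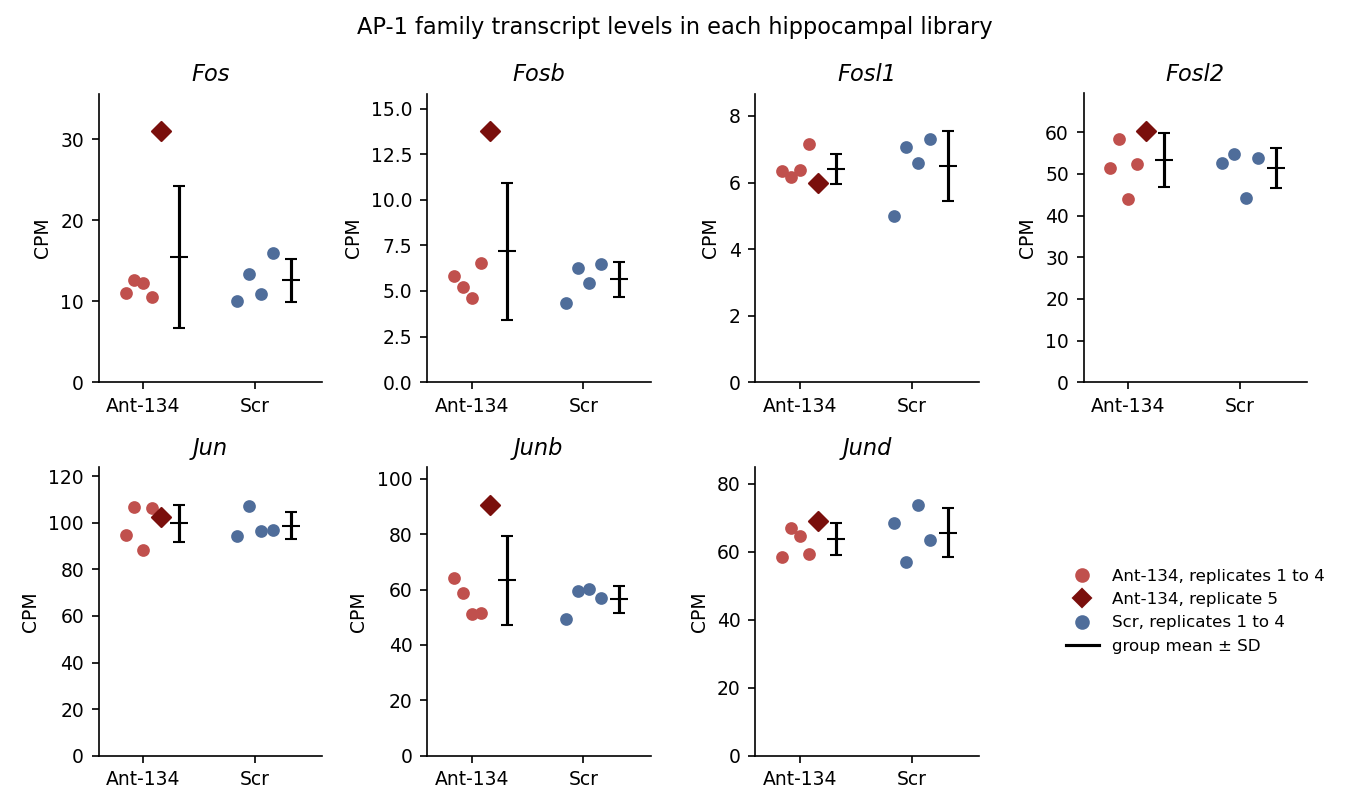
Each panel plots the level of 1 AP-1 gene in CPM (counts scaled to library size) for the 5 Ant-134 and 4 Scr libraries, with the group mean ± SD in black. Ant-134 replicate 5 (diamond) lies at 31.0 CPM for Fos, 13.8 CPM for Fosb and 90.7 CPM for Junb, above all other libraries, and within the other values for Fosl1, Jun and Jund.

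Between the groups, 0 of the 7 members passed an unadjusted p below 0.05 in the edgeR test, where 4.18% of the 19782 tested genes did, and 0 passed after adjustment, where 0% of all tested genes did. DESeq2 without a filter, the tool that the study used, gave 0 of 7 at an unadjusted p below 0.05, against 2.74% of its 37435 genes, and 0 of 7 after adjustment, against 16 of all genes. The groups did not overlap for 0 of the 7 members and for 1.54% of tested genes. With 7 members those background shares correspond to fewer than 1 gene, so counts of 0 do not set the family apart. The median log2 fold change was 0.05 over the members, 5 of which had values above 0, and 0.0026 over all tested genes. Without Ant-134 replicate 5 the median over the members was 0.0012. Exact two-sided permutation tests of the mean CPM over all assignments of the mice to groups gave p from 0.595 (Junb) to 0.865 (Fosl1). The intervals are wide for Fos and Fosb, whose upper ends of 1.17 and 1.08 include a doubling, and narrow for Jun, Jund and Fosl2, whose ends lie within 0.25 of 0. In whole hippocampus, fewer cells that express a gene and less RNA in each cell cannot be told apart.

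**Figure D2:**
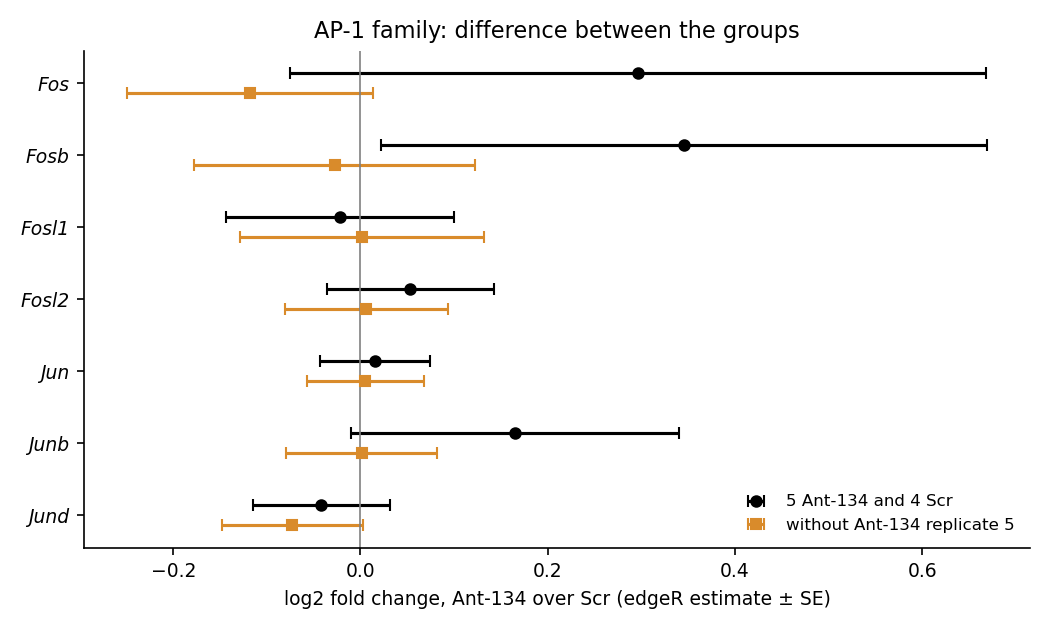
The log2 fold change of Ant-134 over Scr (horizontal axis, edgeR estimate ± SE) is drawn for each AP-1 gene with all 9 libraries (black circles) and without Ant-134 replicate 5 (orange squares). Fos moves from 0.30 to -0.12, Fosb from 0.35 to -0.03 and Junb from 0.17 to 0.0013, while Fosl2, Jun and Fosl1 stay near 0.

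The spread between mice differed among members. Over the 9 libraries the coefficient of variation of CPM was 46.3% for Fos, 43.7% for Fosb and 20.6% for Junb, against 6.70% to 11.2% for the other 4. Without Ant-134 replicate 5 it was 15.9% for Fos, 14.9% for Fosb and 9.15% for Junb. Counting error alone would give 4.61% for Fos and 6.80% for Fosb. The fitted biological variation of Fos lay at the 96.9th percentile of tested genes, that of Fosb at the 94.7th and that of Jun at the 22.4th.

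Within Ant-134 replicate 5, members were placed among 16026 genes with a mean of at least 1 CPM by their ratio to the median of the other 8 libraries. Fos had the 14th highest ratio, Fosb the 21st and Junb the 149th, at 2.67, 2.45 and 1.57 times that median. Fosl2 was 1841st, Jund 3807th, Jun 4654th and Fosl1 11959th. The next most outlying placing of any member in any other library was Fos in Scr replicate 4, at 271st. This library was chosen for its levels, so these placings describe 1 mouse and carry no test.

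Several other measures stood at an extreme in the same library. Ant-134 replicate 5 had the highest mitochondrial share of counts (4.01%, against 3.34% to 3.96%), the highest summed interneuron markers (762 CPM) and the lowest summed oligodendrocyte (6794 CPM), thalamic (97.6 CPM) and mural cell markers (89.9 CPM). Its choroid plexus markers, at 100.4 CPM, were seventh highest of the 9. It also held the highest level of 16.0% of all tested genes, the most of any library. Their part in its Fos, Fosb and Junb levels was not tested. Among the 6 libraries with Y-linked expression, which include replicate 5, Fos averaged 18.6 CPM in 3 Ant-134 and 13.1 CPM in 3 Scr libraries. Among the other 3 libraries it was 10.7 CPM on average in 2 Ant-134 mice and 10.9 CPM in 1 Scr mouse.

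To compare levels between genes, the deposited FPKM values (fragments scaled to transcript length and library size) were used. Averaged over 9 libraries, Jund was the highest at 38.3 ± 3.39 FPKM (SD), followed by Jun at 30.9 ± 2.04 FPKM, Junb at 25.9 ± 5.39 FPKM, Fos at 5.97 ± 2.78 FPKM, Fosl2 at 5.37 ± 0.57 FPKM, Fosl1 at 3.74 ± 0.41 FPKM and Fosb at 1.03 ± 0.45 FPKM. Each Jun gene was thus above every Fos gene. Jun and Junb overlapped in range, with Jun higher in 8 of 9 libraries, and so did Fos and Fosl2, with Fos higher in 5 of 9. The other neighbours in the order did not overlap in range.

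The order within these overlapping pairs rests on the gene length used. The mean of Fos also rests on Ant-134 replicate 5, at 13.1 FPKM against 4.25 to 6.69 FPKM in the other libraries. The table gives Fosl2 a length of 9680 bases and Fosb 6243 bases, which include non-coding transcripts, whereas their longest coding transcripts have 6537 and 3782 bases. With coding transcript lengths, an alternative chosen after seeing the data, Junb (33.0 FPKM) came before Jun and Fosl2 (7.95 FPKM) before Fos (6.66 FPKM), while Fosb stayed last at 1.70 FPKM.

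**Figure D3:**
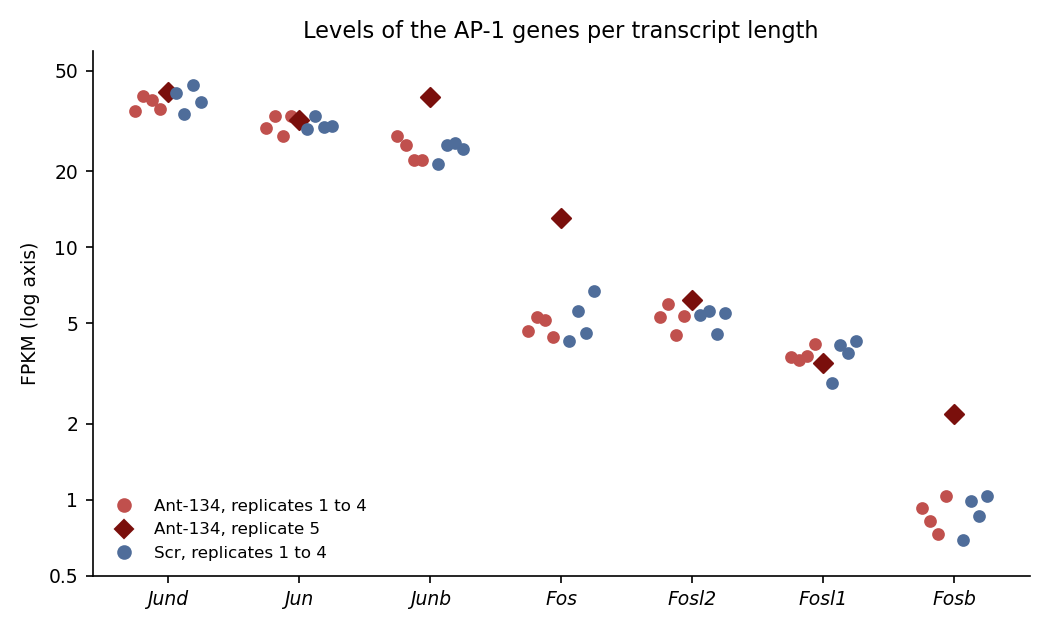
The deposited FPKM of each AP-1 gene is plotted on a log axis for all 9 libraries, in the order of the means from Jund (38.3 FPKM) to Fosb (1.03 FPKM). Jun genes lie above Fos genes, and Ant-134 replicate 5 (diamond) stands apart for Fos, Fosb and Junb.

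Because Fos proteins require Jun partners, the transcripts of both families were also set against each other in each library. The summed Fos family was 14.5, 15.7, 14.1, 14.9 and 25.0 FPKM in Ant-134 replicates 1 to 5, and 13.2, 16.3, 13.8 and 17.5 FPKM in Scr replicates 1 to 4. Expressed as a percentage of the summed Jun family, it was 13.8% to 19.0% in 8 libraries and 22.2% in Ant-134 replicate 5. Thus even in the library with most Fos, Jun family transcripts exceeded those of the Fos family. Fos itself made up 29.5% to 38.3% of Fos family FPKM in those 8 libraries and 52.4% in Ant-134 replicate 5, while Jun had its lowest share of the 7-gene pool there, 23.3% against 26.4% to 31.3%, without a lower level of its own.

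**Figure D4:**
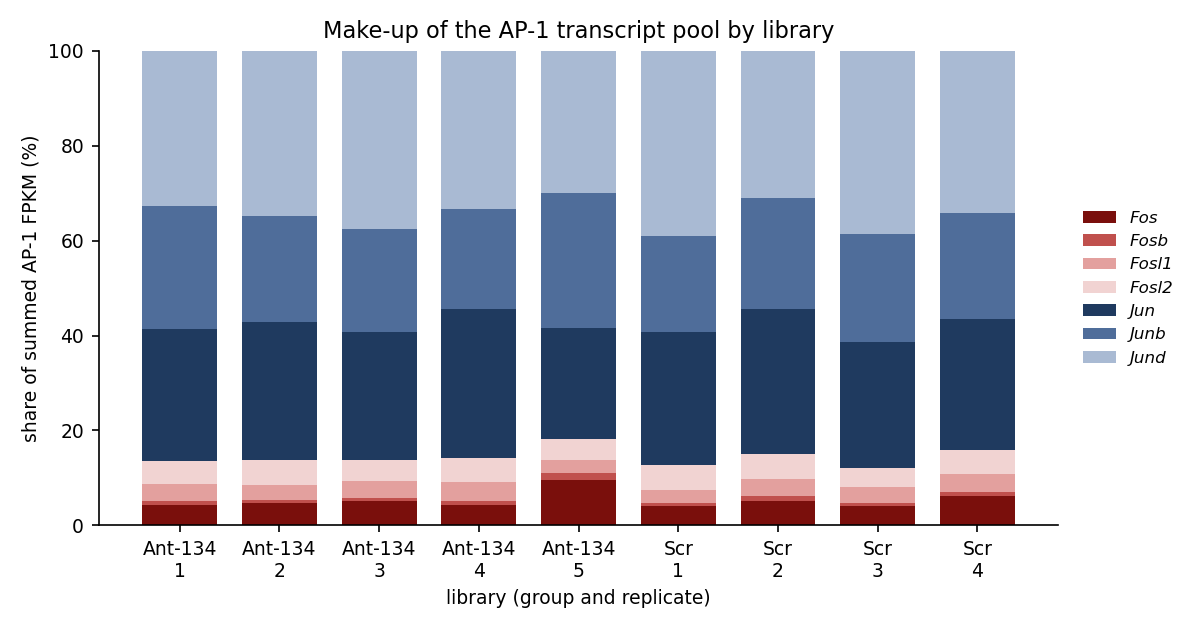
Bars give the share of the summed FPKM of the 7 AP-1 genes that each gene held in each library, in percent. Fos held 9.53% in Ant-134 replicate 5 and 4.03% to 6.10% in the other 8 libraries, and Jund and Jun held most of every bar together with Junb.

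The genes with levels most like those of Fos were sought among 16025 others with a mean of at least 1 CPM, by the root mean square difference of log2 levels relative to the Scr mean over 9 libraries. Fosb was the nearest (0.21), and Egr4 (0.28) and Egr2 (0.29), activity-induced zinc finger factors, were 7th and 8th. The rest of the nearest 10 were 2610035F20Rik, Gm16044, Gm37581, Prr16, mt-Co3, Pdk4 and Zim1. Among the other members, Junb was 13th, Fosl2 718th, Jun 4658th, Jund 5953rd and Fosl1 8838th. Without Ant-134 replicate 5, 0 of these 10 genes stayed among the nearest 10, so the likeness rests on that library.

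Of the 21 other basic leucine zipper partners of Jun and Fos (the Atf, Batf, Maf, Nfe2 and Jdp2 genes), 0 had an unadjusted p below 0.05 in edgeR (4.18% of all tested genes) and 0 in DESeq2 (2.74%). Their median log2 fold change was -0.01, against 0.0026 for all genes. With 1 mouse left out it lay between -0.035 and 0.00042. The extremes were Nfe2 at -0.55 (SE 0.36) and Batf3 at 0.11 (SE 0.27), both near or below 1 CPM. Nfe2 was at -0.28 without Scr replicate 3 and at -0.06 in limma on log2(FPKM + 1), and Batf3 was at -0.07 without Ant-134 replicate 5. Ant-134 replicate 5 was the highest library for 4 of the 21, and for Atf3, an injury-induced partner of Jun, it was the lowest (1.03 CPM, against 1.71 to 2.26 CPM).

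Upstream of Fos and Jun, 27 kinases and promoter factors of the ERK, JNK, p38, SRF, CREB and MEF2 routes were measured. Map2k7, a kinase that activates JNK, was higher in Ant-134 (47.2 to 51.4 CPM) than in Scr (42.7 to 47.5 CPM), with a log2 fold change of 0.11 (SE 0.05; edgeR unadjusted p = 0.0330, adjusted p = 0.998). Rps6ka1, which encodes the ERK-activated kinase RSK1, was lower (21.4 to 22.8 against 21.6 to 27.0 CPM), at -0.16 (SE 0.07; edgeR unadjusted p = 0.0280, adjusted p = 0.998). The unadjusted p of Map2k7 was above 0.05 in 7 of 20 alternatives, among them those without Ant-134 replicates 2, 3 or 5 or Scr replicates 1 or 4. That of Rps6ka1 was above 0.05 in 4, without Ant-134 replicate 5 or Scr replicates 1 or 2 and with a replicate block. The groups overlapped for both genes, and 2 of 27 genes stand against the 4.18% of all tested genes. They were also the extremes of the list, whose median was 0.01, and 0.0061 to 0.034 with 1 mouse left out. Ant-134 replicate 5 was the highest library for 4 of these 27.

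Among 14 genes listed as brakes on the pathway (dual-specificity phosphatases, mRNA decay factors of the Zfp36 family, protein turnover factors and corepressors) 1 passed the same threshold, against 4.18% of all tested genes. Dusp6, a phosphatase of ERK, measured 54.9 to 61.5 CPM in Ant-134 and 47.1 to 59.2 CPM in Scr, a log2 fold change of 0.16 (SE 0.06; edgeR unadjusted p = 0.0222, adjusted p = 0.998). Without Scr replicate 3 or 4 its unadjusted p was above 0.05. The lowest value was that of Dusp10, at -0.17 (SE 0.15), which became -0.28 when Ant-134 replicate 1 was left out and -0.08 when replicate 5 of that group was. The list median was 0.05, and with 1 mouse left out it lay between 0.014 (without Scr replicate 2) and 0.055. Dusp1, itself an immediate early gene that dephosphorylates JNK and p38, was 19.4, 19.7, 21.6, 15.5 and 27.1 CPM in Ant-134 replicates 1 to 5, and 15.1, 17.9, 23.8 and 22.8 CPM in Scr replicates 1 to 4. It was thus highest in the library with the highest Fos, but the groups overlapped, at a log2 fold change of 0.05 (SE 0.18).

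Of 18 genes known as targets of AP-1 or deltaFosB, 0 had an unadjusted p below 0.05 in edgeR (4.18% of all tested genes) and 1, the metallothionein Mt1, in DESeq2 (2.74%). The median log2 fold change was -0.0082, with 9 values above and 9 below 0. It was -0.051 without Ant-134 replicate 4 and 0.014 without Scr replicate 3. Mmp3, a matrix metalloprotease, was lowest at -0.60 (SE 0.89), and its levels of 1.28 to 12.4 CPM in Ant-134 and 1.58 to 14.7 CPM in Scr were high in the libraries rich in choroid plexus markers, a relation that was not tested. Its fold change was 0.18 without Scr replicate 3 and -1.53 without Ant-134 replicate 1. In Ant-134 replicate 5 the target genes had a median log2 level of 0.0032 relative to Scr, inside the range of the other 8 libraries (-0.15 to 0.08), although Calb1, Cdk5, Penk and Mt1 were at their highest there. The list was not split into genes that AP-1 raises and genes that it lowers, so its median does not measure AP-1 activity.

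The 24 other activity-induced early factors divided differently between libraries. Nr4a2, an orphan nuclear receptor, was the 1 gene of this list with an unadjusted p below 0.05 in edgeR (4.18% of all tested genes) and had the lowest fold change, at 47.7 to 51.4 CPM in Ant-134 against 50.9 to 61.9 CPM in Scr (log2 fold change -0.15, SE 0.06; edgeR unadjusted p = 0.0229, adjusted p = 0.998). Without Ant-134 replicate 1, Scr replicate 3 or Scr replicate 4 its unadjusted p was above 0.05. The log2 fold change of Nr4a2 was -0.09 without Scr replicate 3. DESeq2 gave 2 genes (2.74% of its genes), Nr4a2 and Ier3. Ier3 had the highest fold change, 0.33 (SE 0.17). The list median was 0.05, and -0.03 without Ant-134 replicate 5. That library was the highest of the 9 for 14 of the 24 genes (58.3%), as it was for 4 of the 7 AP-1 members, where it was the highest for 16.0% of all tested genes.

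Individual early factors were high in that library to unequal degrees. Arc, a synaptic immediate early gene, was 121.6, 107.7, 103.8, 107.4 and 151.2 CPM in Ant-134 replicates 1 to 5, and 104.1, 114.8, 68.1 and 111.1 CPM in Scr replicates 1 to 4. Egr1 was 112.0, 119.3, 108.9, 110.7 and 133.6 CPM in Ant-134 and 128.7, 121.2, 92.9 and 108.7 CPM in Scr. Both were highest in Ant-134 replicate 5, Arc by a wide and Egr1 by a narrow margin.

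Npas4, a neuron-specific factor induced by calcium entry, measured 17.09, 17.26, 21.995, 12.51 and 26.04 CPM in Ant-134 and 17.5, 16.3, 12.7 and 21.8 CPM in Scr. Nr4a1 measured 73.9, 75.3, 74.2, 61.6 and 94.4 CPM in Ant-134 and 69.0, 73.7, 66.9 and 74.0 CPM in Scr. Replicate 5 was the highest for both, while Scr replicate 4, second in Fos, was the third highest in Npas4. By contrast 10 of the 24, Egr3, Homer1, Bdnf, Nptx2 and Nr4a3 among them, were not at their highest in Ant-134 replicate 5.

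**Figure D5:**
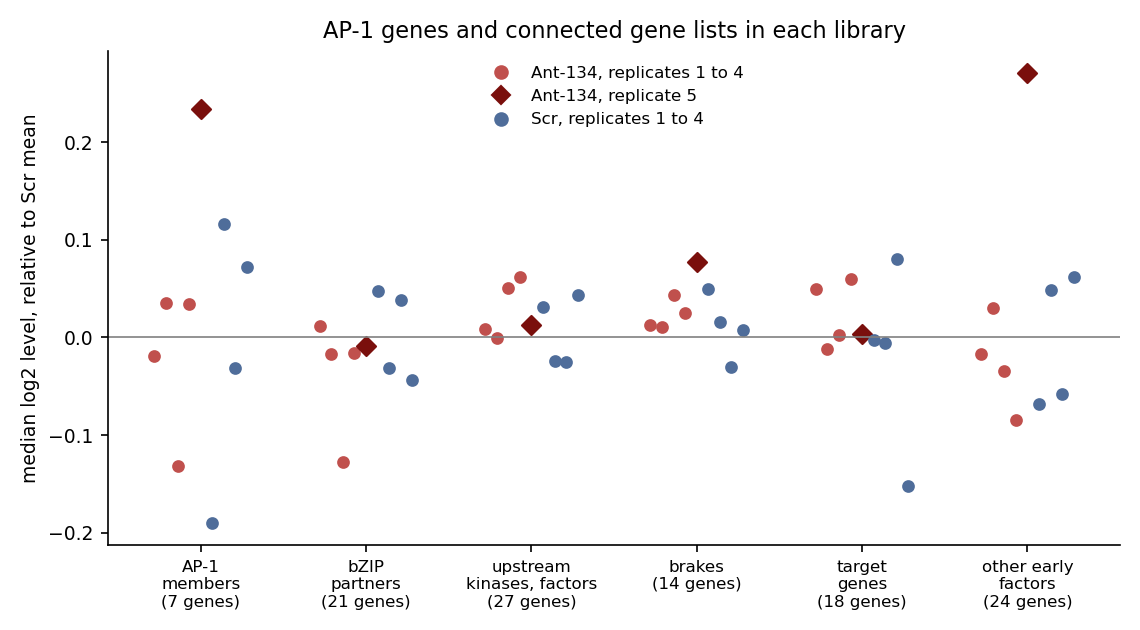
Each point is the median, over the genes of a list, of the log2 level in 1 library relative to the Scr mean, for the AP-1 members and 5 connected lists. Ant-134 replicate 5 (diamond) lies at 0.23 for the AP-1 members and 0.27 for the other early factors, above the remaining libraries, at 0.08 for the brakes, where the next library lies at 0.05, and at -0.0086, 0.01 and 0.0032 for bZIP partners, upstream genes and targets, among the others.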

How the data were processed

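RNA was sequenced from hippocampal samples of 9 mice (5 Ant-134, 4 Scr), with poly-A selection. Per the labels' processing notes and the study's methods, the authors used CASAVA 1.8, HISAT2 2.0.5 on GRCm38 (mm10) and featureCounts 1.5.0-p3, and deposited raw counts per gene. The authors also deposited FPKM values, here used for levels between genes and in limma alternatives. All 9 sample columns were matched to labels and 0 were left out.

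Genes were tested with edgeR 4.0.16 (TMM scaling, filterByExpr with a minimum count of 10, robust quasi-likelihood test, Benjamini-Hochberg adjustment, threshold 0.05) in R 4.3.3, between the groups of the labels, without covariates. DESeq2 1.42.0 (unfiltered, as the study's own test at an unadjusted p), limma 3.58.1 on log2(FPKM + 1), other scalings and filters, a block by replicate number and leaving out each mouse were alternatives. The edgeR, DESeq2 and limma fits were tested on simulated data. The floor of 3 counts was 0.071 to 0.107 CPM per library, below every member, so depth, at 28583298 to 41978113 counts, limits no member. Intervals are 95% intervals of the fitted fold change.

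Replicates are separate mice, and p-values measure the spread between mice. The members and the gene lists were chosen with earlier results of these data known. Genes named were the 7 members, the genes of each list with an unadjusted p below 0.05 and its highest and lowest fold change, the 10 nearest to Fos, Ube3a, and Arc, Egr1, Npas4, Nr4a1 and Dusp1 per library. Atf3, Calb1, Cdk5, Penk, Mt1, Egr3, Homer1, Bdnf, Nptx2 and Nr4a3 were singled out after their values were seen. 1 gene that this rule names is not reported here. Mrtfa and Mrtfb were matched by gene ID. No protein sequences were used here.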

Additional observations from a re-analysis of the deposited data

Results flagged for a closer look

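Values were screened within each group for a single library far from the rest (Dixon's test at the 95% level), and 16 of 94 sets of values met this rule, where chance alone gives about 1 in 20, or 4.7. Of the AP-1 members, Fos (31.0 CPM, others 10.5 to 12.6 CPM) and Fosb (13.8 CPM, others 4.59 to 6.52 CPM) met it in Ant-134 replicate 5, and Junb did not. In the same library it was met by the summed Fos family (25.0 FPKM), by its percentage of the Jun family (22.2%), by Egr4 (47.4 CPM, others 29.5 to 31.7 CPM), Egr2 (6.95 CPM, others 1.74 to 2.91 CPM), Gm37581 (2.68 CPM) and mt-Co3 (160.3 CPM). These genes were named because their levels resemble those of Fos, so they are not separate observations.

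Elsewhere, mt-Co3 was 120.0 CPM in Scr replicate 2, the summed Jun family was 99.5 FPKM in Scr replicate 3, and Mmp3 was 12.4 CPM in Ant-134 replicate 1. Among the cell type markers, choroid plexus stood at 2568 CPM in Ant-134 replicate 1, thalamus at 163.6 CPM and erythrocytes at 403.1 CPM in Ant-134 replicate 3, and microglia at 511.7 CPM and astrocytes at 5515 CPM in Scr replicate 1. Their part in the levels of the AP-1 members was not tested.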

How the results depend on the processing

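The count of 0 AP-1 members with an unadjusted p below 0.05 held in all 20 alternatives, and the smallest unadjusted p of any member in them was 0.139 (Jund, edgeR without Scr replicate 2).

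Leaving out 1 mouse at a time gave log2 fold changes of -0.12 to 0.43 for Fos, -0.028 to 0.47 for Fosb, -0.13 to 0.041 for Fosl1, -0.011 to 0.11 for Fosl2, -0.010 to 0.058 for Jun, 0.0013 to 0.23 for Junb and -0.11 to 0.020 for Jund. The lowest values of Fos, Fosb and Junb were those without Ant-134 replicate 5. Outside the members, Mmp3 ranged from -1.53 without Ant-134 replicate 1 to 0.18 without Scr replicate 3, and Batf3 from -0.069 to 0.24. Counts at an unadjusted p below 0.05 were 0 to 2 in each of the 5 connected lists and 629 to 973 over all genes. Between 0 and 9 of the 10 genes nearest to Fos stayed nearest.

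Replicate numbers are shared between groups, but same-numbered mice did not deviate together (correlations of -0.15, -0.07, -0.05 and 0.05). The labels do not say that the numbers pair mice, and these correlations cannot exclude a pairing. With a replicate block, in which Ant-134 replicate 5 has no partner, log2 fold changes were -0.10 for Fos, -0.024 for Fosb, 0.013 for Fosl1, -0.00095 for Junb and -0.082 for Batf3, and 3 upstream genes and 1 target gene passed (4.08% of all genes). Over all genes, an adjusted p below 0.05 was reached by 0 in the edgeR test of the report, 16 in DESeq2, 14 in edgeR without a filter, 2 with the replicate block and 0 to 17 with 1 mouse left out (17 without Ant-134 replicate 1).

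Against 827 of 19782 genes (4.18%), 1775 of 37454 (4.74%) passed without a filter, 1 bZIP partner, 1 upstream gene, 2 brakes and 2 early factors among them, and 1467 of 37454 (3.92%) in limma on unfiltered log2(FPKM + 1), both with more genes tested. DESeq2 (2.74% of all its genes) gave 1 target gene and 2 early factors, upper-quartile scaling (4.16%) 1 partner and 1 upstream gene, a minimum of 10 counts in every library (4.09%) 1 partner, and a Y-linked covariate (4.78%) 1 partner and 1 target gene. The cause of these list counts was not tested.

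By CPM the order of levels put Jun at 1, Jund at 2, Fosl2 at 4, Fos at 5, Fosb at 6 and Fosl1 at 7. By coding transcript length it put Junb at 2, Jun at 3, Fosl2 at 4 and Fos at 5.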
